A study of Bactrocera oleae with 8 samples.

Results

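Larvae of the olive fruit fly *B. oleae* that fed in black olives were compared with larvae reared on artificial diet. The comparison was made between 4 pools of black olive larvae and 4 pools of artificial diet larvae, which were chosen as the Cy3 channels of the arrays that carried each regime. These are 8 of the 16 channels of the series. Each pool was whole 2nd-instar larvae, 20 to a pool, and the methods give the pools of a regime as biological replicates. The other 8 channels, in Cy5, all held larvae from green olives, so no array carried both black olive and artificial diet larvae. Second-instar larvae were picked from ripe, black Kalamon olives gathered in winter in an orchard in Heraklion. Artificial diet larvae came from eggs that field-derived females laid in wax in the laboratory, and were fed a mixture with yeast, soy hydrolysate, sugar, cellulose and olive oil. Feeding regime, season and rearing therefore cannot be told apart, nor can a change in RNA per cell from a change in the share of a tissue in the larval body.

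The larva of *B. oleae* tunnels through the flesh of the olive, a food rich in oil that holds phenolic compounds such as oleuropein. The paper states that black olives hold less of these compounds than green ones. It also gives their protein as hydrolysed and generally more available. Insect larvae break food proteins down in the midgut, mainly with trypsin- and chymotrypsin-like serine proteases. Cytochrome P450s and glutathione S-transferases modify plant compounds so that they can be excreted. The larval gut also carries the bacterium *Ca. Erwinia dacicola*, and insect lysozymes cut the cell walls of bacteria.

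A pair of measures of each contig, an assembled transcript sequence that the array probes were designed on, are given below. The Cy3 level is the log2 intensity of the black olive or artificial diet channel after background correction and normalisation, averaged over the probes of the contig. Levels of one contig were set side by side across pools, never levels of different contigs, which were only added up for the marker sums at the end. The log2 difference is black olive minus artificial diet taken through the green olive channel, as the mean ratio of the artificial diet arrays minus the mean ratio of the black olive arrays. It was tested with limma over all 20516 contig names, with Benjamini-Hochberg adjustment. A contig was called where limma's adjusted p-value lay under 0.05 and the difference was over 1 in size on the log2 scale, which is a fold change of 2. Standard errors (SE) are those of the fit, and adjusted p-values below are limma's unless said otherwise.

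All 8 arrays lay on a single slide and were scanned once. Between 56.9 and 67.2% of the Cy3 spots were well above background in black olive pools, against 65.5 to 66.9% in artificial diet pools, and no Cy3 spot was saturated. The median Cy3 signal was 134 to 201 in black olive pools and 161 to 228.5 in artificial diet pools, over a local background of 26 to 30. Black olive pools 1 and 2 stood farthest from the other pools of their regime, with a root mean square log2 distance of 0.422 and 0.409. Black olive pools 3 and 4 had 0.318 and 0.270, and the artificial diet pools lay between 0.259 and 0.303. The number of arrays, 4 for each regime, limits the precision.

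In black olive larvae 192 contigs differed from artificial diet larvae, 0.936% of the 20516 tested. Of these 67 were higher in black olive larvae (0.327%) and 125 were lower (0.609%). The median absolute log2 difference of the called contigs was 1.33, with 21 contigs above 2 and 22 below -2. A description by sequence similarity was at hand for 21 of the higher and 64 of the lower contigs. Descriptions came from the study's lists of contigs that changed on these arrays and from its general cell function list. A contig that changed in none of its comparisons mostly has no description. Counts of called members in the described lists below therefore do not describe whole families, and stand beside 0.327% higher and 0.609% lower over all contigs. The median log2 difference of all contigs was 0.01, and 9811 of the 20516 had a difference below 0. A sign shared by the members of a described list is likewise no result about the family. Without the fold threshold, 927 contigs passed. The Cy3 levels of the regimes did not overlap for 191 of the 192 called contigs, against 4213 contigs or 20.5% of the 20512 with a value in every pool. Without black olive pool 4 the number of lower contigs was 83, without artificial diet pool 1 it was 76, and without artificial diet pool 3 it was 72. When limma's treat, which tests against a fold of 2 instead of against no difference, replaced the thresholds, 10 higher and 7 lower contigs were left.

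The array rows were unequally shared by the regimes, with 3 black olive arrays and 1 artificial diet array in the first row of the slide and 1 and 3 in the second. Each row thus held a single array of one regime, and the median absolute difference of the called contigs was 1.47 within the first row and 1.32 within the second. With the row as a covariate 46 contigs were higher and 76 lower, and 110 of the 192 were still called. Of the 66 contigs described below because they were called, 24 lost their call with the row as a covariate.

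The list with the lowest median difference was that of myo-inositol oxygenase, the enzyme that opens the ring of myo-inositol to give glucuronate in the first step of inositol breakdown. All 5 contigs with this description were lower in black olive larvae, by 5.07 to 8.28-fold, and the median log2 difference of the list was -2.86. The study had listed all 5 for this comparison on these arrays, and an unchanged contig would mostly have no description. The count, the median and its rank among the lists are therefore no result about this enzyme as a whole. For contig08383 the Cy3 levels were 11.03, 10.37, 11.07 and 11.76 in the black olive pools and 14.02, 14.19, 14.43 and 13.91 in the artificial diet pools, a log2 difference of -3.05 (SE 0.238, adjusted p = 0.00126). For contig10911 they were 12.06, 11.23, 12.09 and 12.87 in black olive pools and 14.39, 15.39, 15.61 and 14.79 in artificial diet pools, with a difference of -3.04 (SE 0.341, adjusted p = 0.00425). In both contigs every black olive pool lay at least 1 log2 unit under every artificial diet pool, with black olive pool 4 the highest of its regime and pool 2 the lowest.

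The same order of the black olive pools at its ends was seen in contig11233, with levels of 10.78, 10.05, 10.62 and 11.40 in black olive pools against 13.45, 13.74, 13.93 and 13.29 in artificial diet pools (log2 difference -2.86, SE 0.215, adjusted p = 0.00119). In contig07712 they were 10.38, 9.61, 10.27 and 11.12 in black olive pools, against 13.04, 13.30, 13.48 and 12.83 in artificial diet pools (log2 difference -2.83, SE 0.236, adjusted p = 0.00139). The 4 artificial diet pools differed from each other by less than 1 log2 unit in these contigs. The fifth contig, contig09199, had the widest spread of the 5 among artificial diet pools and the narrowest among black olive pools. Its levels were 10.11, 9.86, 9.99 and 10.74 in black olive pools and 11.46, 12.97, 13.21 and 12.44 in artificial diet pools (log2 difference -2.34, SE 0.367, adjusted p = 0.0164). Its probes ranged from -2.97 to -1.17, and its call was lost without artificial diet pool 1 or 3 and with the slide row as a covariate. Whether the 5 contigs share stretches of sequence was not tested, so they may not be separate genes, and the study chose all 5 on these arrays.

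**Figure D1:**
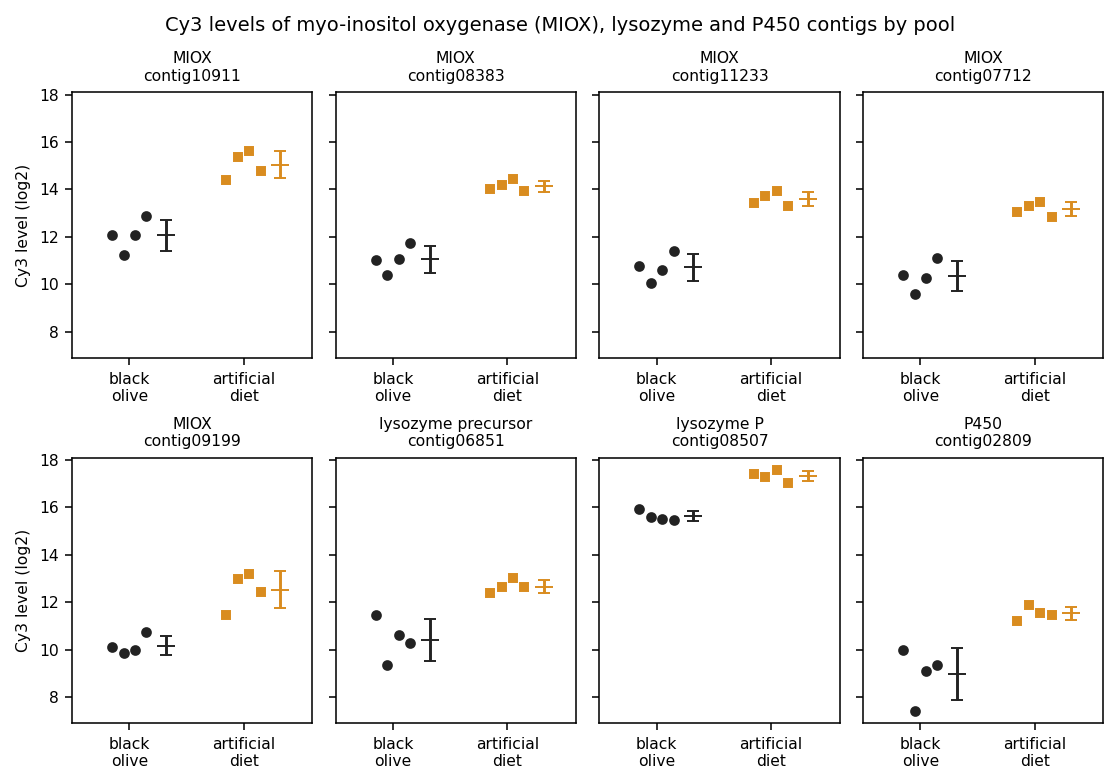
Normalised Cy3 level (log2, vertical axis) of each black olive pool (black circles, left) and each artificial diet pool (orange squares, right) for the 5 myo-inositol oxygenase contigs, both lysozyme contigs and P450 contig02809, with the mean and SD of 4 pools beside the points. The black olive pools lie under the artificial diet pools in all 8 panels, and black olive pool 2 is the lowest point in all panels but that of lysozyme P. Levels cannot be compared between panels.

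Both contigs described as lysozymes were also lower in black olive larvae. The study had listed both for this comparison on these arrays, and an unchanged lysozyme would have no description here. That both fell is therefore no result about the lysozymes of the array. Contig06851, a lysozyme precursor, had Cy3 levels of 11.45, 9.34, 10.60 and 10.28 in black olive pools and 12.37, 12.65, 13.01 and 12.63 in artificial diet pools, a 4.92-fold difference (log2 -2.30, SE 0.326, adjusted p = 0.0125). Contig08507, described as lysozyme P, a digestive lysozyme in *Drosophila*, had 15.96, 15.59, 15.52 and 15.49 in black olive pools and 17.39, 17.28, 17.59 and 17.04 in artificial diet pools, a 3.52-fold difference (log2 -1.82, SE 0.277, adjusted p = 0.015). Black olive pools spread over 2.11 log2 units in contig06851 and over 0.47 in contig08507, and neither contig had pools of the regimes that overlapped. The call of contig08507 was lost without artificial diet pool 3.

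Serine proteases changed in both directions. Of 15 contigs with such a description 2 rose in black olive larvae and 1 fell, with a median log2 difference of -0.05. The study's RT-qPCR primers are shown 5′ to 3′ for the contigs with the largest rise and the only fall of this list. Those for a P450 and a lysozyme contig described here are shown too, because they tie each contig to sequence that can be tested. The paper presents its RT-qPCR for genes overexpressed in its comparisons, and describes none for a fall in this one. The RT-qPCR itself was not analysed here.
contig04596 (trypsin-like serine protease) forward: cggctctgaaatcagggata
contig04596 (trypsin-like serine protease) reverse: ttcatcggcaacatcactgt
contig04367 (midgut-specific serine protease 2) forward: taagcccaggacaccaaacc
contig04367 (midgut-specific serine protease 2) reverse: accgaagacggacagaagtg
contig03604 (cytochrome P450-28a1) forward: gctttctgcggcacattgaa
contig03604 (cytochrome P450-28a1) reverse: aatgcgtgacagtgctcaga
contig06851 (lysozyme precursor) forward: tggctcgttgggcttgtatt
contig06851 (lysozyme precursor) reverse: tgggttcgatgttgtcggtt

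The trypsin-like contig04596 had Cy3 levels of 12.65, 12.24, 12.48 and 12.22 in black olive pools and 10.26, 9.94, 10.63 and 10.34 in artificial diet pools. The pools of a regime lay within 0.69 log2 units, and the 4.22-fold rise in black olive larvae (log2 2.08, SE 0.115, adjusted p = 0.000237) was called in every alternative that was run. Contig02711, midgut-specific serine protease 1, had 13.92, 14.23, 14.66 and 13.91 in black olive pools, against 12.73, 13.15, 12.99 and 13.20 in artificial diet pools (log2 difference 1.15, SE 0.174, adjusted p = 0.015). Its call was lost without artificial diet pool 3 and with the slide row as a covariate. Contig04367, midgut-specific serine protease 2, moved the other way, with 14.04, 13.88, 14.09 and 13.99 in black olive pools and 15.50, 15.20, 15.79 and 15.44 in artificial diet pools, a 2.96-fold fall (log2 -1.57, SE 0.141, adjusted p = 0.00167).

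Among the 12 serine proteases that were not called, 5 had an adjusted p-value below 0.05 with a difference under the threshold. Both contigs of jonah 65aiv, a midgut chymotrypsin-like protease in *Drosophila*, were among them, at -0.83 (adjusted p = 0.00636) for contig06773 and -0.89 (adjusted p = 0.00186) for contig07006. The jonah 65aiii contig03768 had a log2 difference of 1.06 (adjusted p = 0.0675), and the midgut trypsins contig04090 and contig05378 had 0.60 (adjusted p = 0.108) and 0.10 (adjusted p = 0.814).

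Other digestive enzymes were lower or not called. Of 15 contigs 3 fell in black olive larvae, none rose, and the list median was -0.80. Hexosaminidase contig02256, which removes amino sugars from glycans and chitin, had Cy3 levels of 14.86, 15.21, 15.27 and 15.05 in black olive pools and 16.52, 16.37, 16.18 and 16.22 in artificial diet pools (log2 difference -1.23, SE 0.15, adjusted p = 0.00636). Deoxyribonuclease I contig01241, a nuclease, had 8.81, 7.95, 8.69 and 9.13 in black olive pools and 10.54, 9.73, 10.13 and 9.70 in artificial diet pools (log2 difference -1.32, SE 0.273, adjusted p = 0.0386). The call of contig01241 was lost whichever pool was left out, and with the slide row as a covariate. Cathepsin K contig11758, a cysteine protease, was faint, with 6.90, 6.66, 6.76 and 6.86 in black olive pools and 8.30, 7.89, 8.38 and 8.32 in artificial diet pools (log2 difference -1.44, SE 0.214, adjusted p = 0.0141), and 3 of the 4 black olive channels were well above background. The call of contig11758 was lost with the slide row as a covariate. Maltase A2 contig02414, which splits sugars, was at 0.95 (adjusted p = 0.042), under the fold threshold, and the 3 contigs of the peritrophic matrix, the lining of the midgut, lay between -0.57 and 0.23 and were not called.

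Cytochrome P450s split as well. The 21 P450 sequences on the array with such a description or a boCYP name included 2 that rose in black olive larvae, 6 that fell and 13 that were not called, and 15 had a difference below 0. Of the 6 described P450 contigs the study had listed 5 for this comparison. Whether a described contig and a boCYP sequence cover the same gene was not tested, so a gene may be counted more than once. The rise of contig03604, a CYP28A1-like P450, was the largest, with Cy3 levels of 8.84, 9.17, 9.77 and 9.02 in black olive pools and 6.95, 7.29, 6.68 and 6.79 in artificial diet pools, a 4.57-fold difference (log2 2.19, SE 0.4, adjusted p = 0.0275). The closest pools of the regimes were 1.55 log2 units apart. Its call was kept without black olive pool 1 or artificial diet pool 4 and lost without any other single pool and with the slide row as a covariate, and in the Cy3 levels alone its difference was 2.27 (adjusted p = 0.000828). Contig10157, a second P450, had 7.11, 7.40, 7.86 and 7.34 in black olive pools and 6.34, 6.51, 6.22 and 6.27 in artificial diet pools, where no pool was well above background. Its log2 difference was 1.18 (SE 0.136, adjusted p = 0.00487), and it was at least 2.00-fold higher in black olive larvae when the artificial diet level was set to the faintest signal that was well above background on each array. With single pools left out this bound ran from 1.81, without black olive pool 3, to 2.15, without black olive pool 1.

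Among the P450s that fell, contig02809 had the widest spread, with Cy3 levels of 9.98, 7.40, 9.11 and 9.37 in black olive pools and 11.21, 11.89, 11.55 and 11.47 in artificial diet pools (log2 difference -2.45, SE 0.521, adjusted p = 0.0411). Black olive pool 2 was the lowest by 1.70 log2 units, and without it the difference was -1.90 and was still called, while the call was lost without any other single pool. Its call was also lost with the slide row as a covariate, with the median of the probes, and with the scanner's processed signals or the value table. Contig00383, a CYP6D8-like P450, was steadier, with 11.99, 12.04, 12.44 and 12.57 in black olive pools and 13.60, 13.63, 13.58 and 13.68 in artificial diet pools (log2 difference -1.40, SE 0.135, adjusted p = 0.00198). The P450 monooxygenase contig04361 had 13.22, 13.42, 13.15 and 13.12 in black olive pools and 13.99, 14.48, 14.44 and 14.11 in artificial diet pools (log2 difference -1.09, SE 0.0946, adjusted p = 0.00139).

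The 15 boCYP names are P450 fragments of the species that had been cloned by PCR with degenerate primers, and the study did not choose them for a change on these arrays. None of them rose, 3 fell, and 12 had a difference below 0, with a median of -0.30. Over all contigs 0.327% rose, 0.609% fell, and 9811 of 20516 had a difference below 0. For boCYP6A9-5 the Cy3 levels were 12.18, 12.03, 12.56 and 12.37 in black olive pools and 13.49, 13.99, 13.88 and 13.95 in artificial diet pools, a 3.05-fold fall (log2 -1.61, SE 0.154, adjusted p = 0.0019). For boCYP6A14-7 they were 12.37, 12.57, 12.38 and 12.33 in black olive pools and 13.60, 13.61, 13.57 and 13.21 in artificial diet pools (log2 difference -1.08, SE 0.094, adjusted p = 0.00139). Both belong to the CYP6A subfamily by name, and the other CYP6A sequences were at 0.16 for boCYP6A13-6, -0.34 for boCYP6A28-8 and -0.84 for boCYP6A38V1-9, none of them called. The third call, boCYP9F2-12, rested on unequal probes, which ranged from -2.22 to 0.01 (log2 difference -1.13, SE 0.258, adjusted p = 0.0494), and was lost whichever pool was left out and with the slide row as a covariate.

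**Figure D2:**
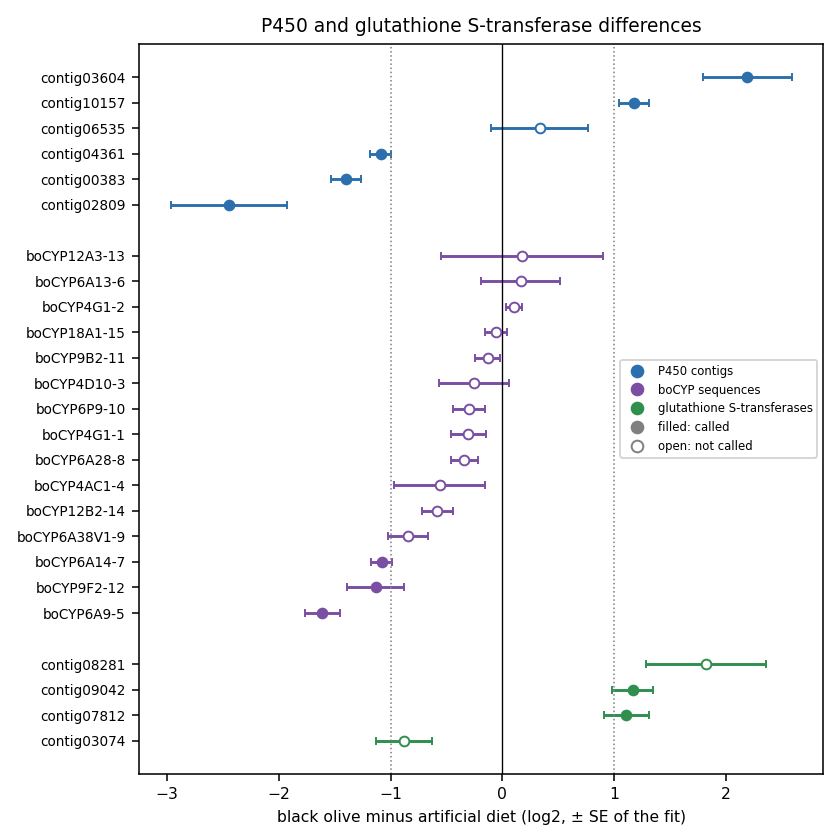
Log2 difference, black olive minus artificial diet (horizontal axis, bars are the SE of the fit), of the 6 described P450 contigs (blue), the 15 boCYP sequences (purple) and the 4 glutathione S-transferase contigs (green). Filled points were called and open points were not, and dotted lines mark the fold threshold. The rises are contig03604 and contig10157 among the P450s and contig09042 and contig07812 among the transferases.

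Of 4 glutathione S-transferase contigs, whose products join glutathione to reactive compounds, 2 rose in black olive larvae. Contig09042 had Cy3 levels of 9.10, 8.89, 9.02 and 9.59 in black olive pools and 8.04, 7.55, 8.22 and 7.99 in artificial diet pools (log2 difference 1.17, SE 0.183, adjusted p = 0.0167). Contig07812, an epsilon-class member named e10, had 10.24, 9.97, 9.97 and 10.80 in black olive pools and 9.04, 8.70, 9.39 and 9.12 in artificial diet pools (log2 difference 1.11, SE 0.198, adjusted p = 0.0262). Black olive pool 4 was the highest in both, and the call was lost without artificial diet pool 1 in both, and in contig07812 also without black olive pool 4, without artificial diet pool 2 or 4, and with the slide row as a covariate. The D1 contig08281 had a larger difference of 1.82 but a wider error (SE 0.535, adjusted p = 0.0896), and contig03074 was at -0.88 (adjusted p = 0.0843).

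Of 11 other contigs tied to detoxification, 1 rose and 1 fell, and the list median was -0.70. Contig03020, which the study describes as an N-acetyltransferase, had Cy3 levels of 13.71, 14.08, 14.80 and 13.92 in black olive pools and 13.14, 13.01, 12.93 and 12.90 in artificial diet pools (log2 difference 1.11, SE 0.247, adjusted p = 0.0459), kept its call only without black olive pool 1, and lost it with the slide row as a covariate. Carboxylesterase contig00333, an enzyme that splits esters, had 12.48, 12.30, 12.36 and 12.76 in black olive pools and 13.64, 13.70, 13.78 and 13.41 in artificial diet pools (log2 difference -1.16, SE 0.164, adjusted p = 0.0125). The ABC-type transporter contig03867 was at -0.78 (adjusted p = 0.00743), under the fold threshold.

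The list of amino acid and purine metabolism, which holds enzymes that make these compounds and enzymes that break them down, had the most rises of the lists examined. Of 11 contigs 5 rose in black olive larvae and 1 fell, and the list median was 0.93. Over all contigs 0.327% rose and 0.609% fell, but the study's own list for this comparison already held 6 of the 11. The count is therefore no result about these pathways as a whole. Guanylate kinase contig03283, which phosphorylates GMP, had Cy3 levels of 11.04, 12.06, 11.56 and 11.74 in black olive pools and 9.95, 9.99, 10.04 and 10.53 in artificial diet pools (log2 difference 1.45, SE 0.214, adjusted p = 0.0141). Phosphoserine aminotransferase contig01395, an enzyme of serine synthesis, had 12.58, 12.36, 12.80 and 12.37 in black olive pools and 10.96, 11.38, 11.26 and 11.51 in artificial diet pools (log2 difference 1.18, SE 0.213, adjusted p = 0.0265). The next enzyme of serine synthesis, phosphoserine phosphatase contig00698, had the smallest standard error of the list and lay under the fold threshold, at 0.93 (SE 0.0773, adjusted p = 0.00139).

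Glutamine synthetase 2 contig02665, which fixes ammonia onto glutamate, had Cy3 levels of 12.02, 12.31, 11.88 and 11.82 in black olive pools and 11.01, 11.03, 10.85 and 11.02 in artificial diet pools (log2 difference 1.04, SE 0.123, adjusted p = 0.00575). Adenylosuccinate lyase contig00720, of purine synthesis, had 13.52, 14.77, 14.10 and 13.91 in black olive pools and 12.62, 12.82, 12.94 and 13.18 in artificial diet pools (log2 difference 1.12, SE 0.237, adjusted p = 0.0405). The levels of 4-aminobutyrate aminotransferase contig00237, which breaks GABA down, were 11.17, 11.05, 11.79 and 10.76 in black olive pools and 10.23, 9.97, 9.84 and 10.33 in artificial diet pools (log2 difference 1.01, SE 0.191, adjusted p = 0.0304). The call of contig00720 was kept without black olive pool 1 only, that of contig00237 without black olive pool 4 only, that of contig02665 was lost without black olive pool 2, and that of contig03283 without artificial diet pool 3. Contig01395 lost its call without black olive pool 4 or artificial diet pool 1 or 3, and contig01395, contig00720 and contig00237 lost it with the slide row as a covariate.

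The fall in this list was homogentisate dioxygenase contig04868, of tyrosine breakdown, at 13.17, 12.85, 13.26 and 13.25 in black olive pools and 13.97, 14.08, 14.20 and 14.25 in artificial diet pools (log2 difference -1.07, SE 0.106, adjusted p = 0.00212). In the Cy3 levels alone its difference was -0.995, short of the fold threshold, and its call was also lost without black olive pool 2.

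**Figure D3:**
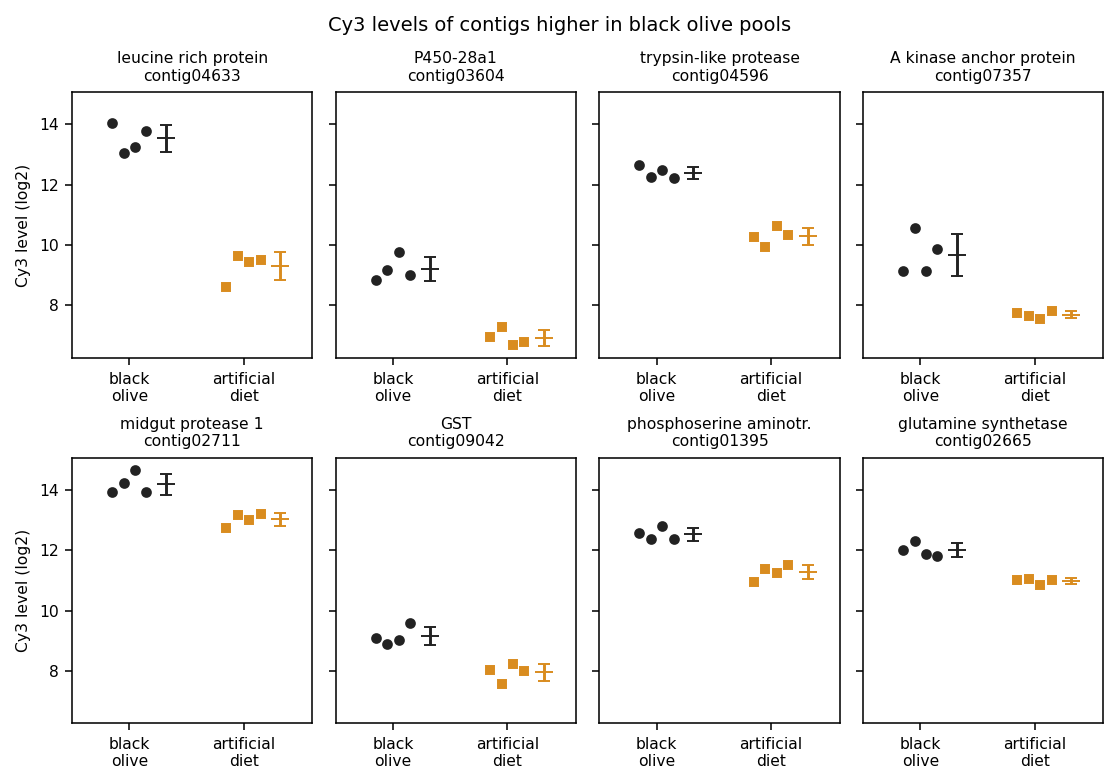
Normalised Cy3 level (log2, vertical axis) of each black olive pool (black circles, left) and each artificial diet pool (orange squares, right) for 8 contigs that were higher in black olive larvae, with the mean and SD of 4 pools beside the points. The black olive pools lie above the artificial diet pools in all 8 panels, and contig04633 has the widest gap. Levels cannot be compared between panels.

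In lipid and central carbon metabolism 1 of 12 contigs rose and 2 fell, with a list median of 0.50. Aldehyde dehydrogenase contig03770 had Cy3 levels of 12.45, 13.42, 13.37 and 13.34 in black olive pools and 11.80, 12.13, 12.27 and 12.25 in artificial diet pools (log2 difference 1.03, SE 0.144, adjusted p = 0.0115), with probes that ranged from 0.35 to 2.01. Its call was lost without black olive pool 2 or 4 or artificial diet pool 1 or 2. The 3-oxoacyl-acyl-carrier-protein reductase contig04780, named for an enzyme of fatty acid synthesis, had 10.87, 10.62, 11.02 and 10.64 in black olive pools and 12.91, 12.92, 12.98 and 12.06 in artificial diet pools, a 3.78-fold fall (log2 -1.92, SE 0.213, adjusted p = 0.00411). Contig02029, described only as a partial alcohol enzyme, had 10.21, 10.54, 10.27 and 10.05 in black olive pools and 11.88, 11.74, 11.74 and 11.71 in artificial diet pools (log2 difference -1.44, SE 0.193, adjusted p = 0.00935). The enzymes that feed fatty acid synthesis, ATP citrate lyase contig01047 and acetyl-CoA carboxylase contig01325, had differences of 0.66 (adjusted p = 0.202) and 0.54 (adjusted p = 0.231), and 3-hydroxybutyrate dehydrogenase contig04692, of ketone body use, had 1.53 (adjusted p = 0.0698).

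Of 10 membrane transport contigs 4 fell in black olive larvae, 1 rose and 5 were not called, and the list median was -0.95. Both inward rectifier potassium channels fell, contig11103 with Cy3 levels of 11.14, 10.81, 11.21 and 10.87 in black olive pools and 12.29, 12.27, 11.94 and 11.91 in artificial diet pools (log2 difference -1.04, SE 0.133, adjusted p = 0.00778). For contig03629 they were 13.41, 13.08, 13.42 and 13.34 in black olive pools and 14.16, 14.64, 14.37 and 14.37 in artificial diet pools (log2 difference -1.15, SE 0.146, adjusted p = 0.00751). The sodium-dependent phosphate transporter contig01188 had 12.14, 12.03, 12.81 and 12.30 in black olive pools and 13.20, 13.85, 13.63 and 13.79 in artificial diet pools (log2 difference -1.31, SE 0.233, adjusted p = 0.0261), and a second contig of that description, contig05867, was at -0.48 (adjusted p = 0.0325). The pools of the regimes did not overlap in any of the called transporters.

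The copper transporter contig06412 had Cy3 levels of 10.08, 9.89, 10.31 and 10.09 in black olive pools and 11.10, 11.13, 11.82 and 11.26 in artificial diet pools (log2 difference -1.16, SE 0.229, adjusted p = 0.034). The rise was the monocarboxylate transporter contig08447, of the family that carries lactate and related acids, at 9.90, 8.99, 9.26 and 9.57 in black olive pools and 8.11, 8.26, 7.98 and 8.31 in artificial diet pools (log2 difference 1.31, SE 0.243, adjusted p = 0.0291). The calls of these contigs depended on single pools: contig06412 kept its call only without black olive pool 3, contig08447 only without black olive pool 2 or artificial diet pool 2. Contig11103 lost its call without black olive pool 2 or artificial diet pool 1 or 2, and contig01188 lost it without black olive pool 4 or artificial diet pool 2, 3 or 4. The slide row as a covariate ended the calls of contig06412, contig08447 and contig01188.

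**Figure D4:**
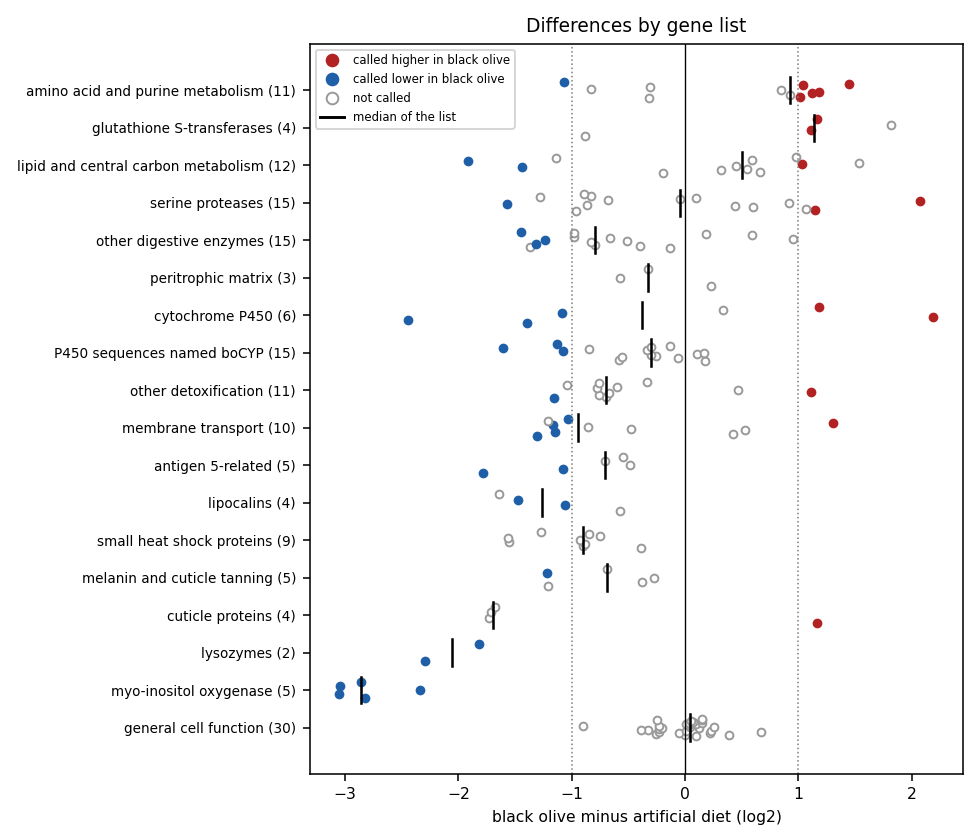
Log2 difference, black olive minus artificial diet (horizontal axis), of each member of 18 gene lists, with the number of members in brackets and the list median as a black bar. Red points were called higher, blue points lower and open points were not called, and dotted lines mark the fold threshold. All points of the myo-inositol oxygenase and lysozyme lists are called lower, and no point of the general cell function list is called. Every contig of the myo-inositol oxygenase and lysozyme lists had been chosen by the study for this comparison.

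Among 5 antigen 5-related contigs, which code for secreted cysteine-rich proteins of the family of wasp venom antigen 5, 2 fell in black olive larvae, 3 were not called and all 5 were below 0. Contig04089 had Cy3 levels of 14.76, 13.86, 13.77 and 14.53 in black olive pools and 16.05, 15.76, 16.21 and 15.73 in artificial diet pools, a 3.44-fold fall (log2 -1.78, SE 0.211, adjusted p = 0.00575). Contig04218 had 7.68, 6.96, 7.20 and 7.34 in black olive pools and 8.72, 8.15, 8.31 and 8.22 in artificial diet pools (log2 difference -1.08, SE 0.176, adjusted p = 0.0195), and lost its call without black olive pool 3 or 4 or artificial diet pool 1. The remaining 3 contigs lay between -0.71 and -0.49 and were not called.

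Of 4 lipocalins, carriers of small fat-soluble molecules, 2 fell and all 4 were below 0, with a median of -1.26. The apolipoprotein D-like contig07056 had Cy3 levels of 14.53, 14.92, 13.72 and 14.31 in black olive pools and 15.64, 15.57, 16.05 and 15.76 in artificial diet pools (log2 difference -1.47, SE 0.29, adjusted p = 0.0342). Apolipoprotein D contig05067 had 10.27, 10.12, 9.67 and 10.14 in black olive pools and 10.89, 11.34, 11.28 and 10.94 in artificial diet pools (log2 difference -1.06, SE 0.151, adjusted p = 0.0127). Black olive pool 3 was the lowest in both. Contig07071, another apolipoprotein D-like contig, had the largest difference of the list, -1.65, and was not called (adjusted p = 0.0945). The call of contig05067 was lost without black olive pool 3 or artificial diet pool 2, that of contig07056 without black olive pool 4 or any single artificial diet pool, and both with the slide row as a covariate.

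Genes of the cuticle gave 1 rise and 1 fall. Adult cuticle protein 1 contig02330 had Cy3 levels of 7.94, 7.72, 8.34 and 7.64 in black olive pools and 7.16, 6.50, 6.44 and 6.84 in artificial diet pools (log2 difference 1.16, SE 0.26, adjusted p = 0.0463). It was the only called contig whose ratios to green olive overlapped between the regimes, and it was called without black olive pool 4 or artificial diet pool 1 but not without any other single pool. With the slide row as a covariate its difference was 0.76 and was not called. The 3 contigs of cuticular protein 65Au lay between -1.73 and -1.68, larger than that rise in size, with adjusted p-values of 0.119 to 0.132. Among 5 contigs for melanin and cuticle tanning the alpha methyl dopa-resistant contig02278, an enzyme that makes a crosslinker of the cuticle in *Drosophila*, had 12.78, 12.28, 11.59 and 11.93 in black olive pools and 13.68, 12.91, 13.62 and 13.15 in artificial diet pools (log2 difference -1.22, SE 0.258, adjusted p = 0.0407), and lost its call whichever pool was left out and with the slide row as a covariate. All 9 small heat shock protein contigs, chaperones of the family that rises with heat, were below 0, from -1.56 to -0.39, and none was called, with adjusted p-values of 0.158 to 0.748. None was in the study's list for this comparison. Their descriptions came from its other comparisons, which share these arrays, or from its general list. The shared sign therefore cannot be read as a result about the family.

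The largest rise among described contigs was that of a leucine rich protein, contig04633, which had Cy3 levels of 14.03, 13.07, 13.27 and 13.79 in black olive pools and 8.62, 9.65, 9.43 and 9.49 in artificial diet pools, a 15.7-fold difference (log2 3.97, SE 0.207, adjusted p = 0.000233). Of the remaining described rises, A kinase anchor protein contig07357, of a family that holds protein kinase A in place, had 9.13, 10.56, 9.14 and 9.87 in black olive pools and 7.75, 7.66, 7.55 and 7.80 in artificial diet pools (log2 difference 2.02, SE 0.339, adjusted p = 0.0209). Its artificial diet pools lay within 0.25 log2 units, its black olive pools spread over 1.43, and its call was lost without black olive pool 4 or artificial diet pool 1, 2 or 3 and with the slide row as a covariate. The helicase-like contig09851 was at 1.43 (adjusted p = 0.0335), the isoform b contig03975 at 1.37 (adjusted p = 0.00261) and contig05945, similar to *Drosophila* CG30380, at 1.20 (adjusted p = 0.0314). The calls of contig09851 and contig05945 were each lost without any 1 of 6 pools and with the slide row as a covariate. Described falls with no known function were found too, and contig05020, an uncharacterised conserved protein, was at -2.76 (adjusted p = 0.00915) and contig03933, similar to *Drosophila ananassae* GF18737, at -2.86 (adjusted p = 0.00139).

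Larger differences were found among contigs with no description. The highest was rc_contig07171, where rc marks probes designed on the reverse strand, with Cy3 levels of 12.53, 11.46, 11.34 and 11.97 in black olive pools and 7.39, 7.93, 7.80 and 7.67 in artificial diet pools, a 16.7-fold difference (log2 4.06, SE 0.253, adjusted p = 0.000508). Contig12892 had 12.25, 11.13, 11.09 and 11.65 in black olive pools and 7.82, 8.13, 7.92 and 7.84 in artificial diet pools (log2 difference 3.52, SE 0.23, adjusted p = 0.000654). In both, as in contig04633, black olive pool 1 was the highest and pool 4 the next. Contig13178 and rc_contig04969 were at 2.69 (adjusted p = 0.00186) and 2.88 (adjusted p = 0.00189). The probe set r_contig00541_rc(1475-1690), on the reverse strand of a part of its contig, was at 2.90 (adjusted p = 0.000237), with probes that ranged from 0.91 to 4.42.

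Among undescribed falls contig04551 had Cy3 levels of 12.52, 9.98, 10.16 and 11.85 in black olive pools and 15.20, 14.91, 15.75 and 14.76 in artificial diet pools, a 17.3-fold difference (log2 -4.12, SE 0.507, adjusted p = 0.00683). Its reverse strand fell too, by 9.95-fold (log2 -3.31, adjusted p = 0.00487). The others were contig10095 at -3.20 (adjusted p = 0.00694) and rc_contig10962 at -3.27 (adjusted p = 0.0402), which lost its call without black olive pool 2 or 4 or any single artificial diet pool and with the slide row as a covariate.

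The array held probes on both strands for 6664 contigs. In 82 of these at least one strand was called, and in 19 both were, always in the same direction, so that the 192 calls include contigs counted on both strands. A contig with no description has no known sense strand. The forward strand of contig07171, described by homology to a human PG1 sequence, was at 1.50 (adjusted p = 0.0501), against 4.06 for its reverse strand, and the forward strand of contig04969 was at 0.31, against 2.88 for its reverse strand.

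Of 3 contigs described as viral 1 fell in black olive larvae. Contig00002 is described as a nonstructural polyprotein, the kind of protein that RNA viruses use to copy themselves. Its Cy3 levels were 6.17, 6.20, 6.28 and 6.73 in black olive pools, none of them well above background, and 9.02, 8.93, 9.87 and 9.80 in artificial diet pools (log2 difference -3.07, SE 0.26, adjusted p = 0.00139), so that it was at least 7.36-fold lower in black olive larvae. With single pools left out the bound for contig00002 ran from 6.61, without artificial diet pool 3, to 8.21, without artificial diet pool 2. The probes on its reverse strand had 6.29, 6.15, 6.18 and 6.52 in black olive pools, again at background, and 16.83, 18.22, 15.16 and 12.83 in artificial diet pools. Through green olive the reverse strand was 66.0-fold lower in black olive larvae (log2 -6.04, SE 0.251, adjusted p = 0.000135). The Cy5 readings behind that value differed widely between the sets of arrays, as given below, so its size and its small SE are uncertain. With the Cy3 levels alone, and the black olive level set to the faintest signal well above background, the fold was 603 over these pools. That value depends on the artificial diet pools, which spread over more than 5 log2 units, and it was 342 without artificial diet pool 2 and 1187 without artificial diet pool 4.

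The other virus-like contigs, nucleocapsid contig04635 and outer coat contig05647, were at 1.24 (adjusted p = 0.118) and 0.74 (adjusted p = 0.273), the opposite sign to contig00002. Of 7 contigs of mobile elements 2 fell in black olive larvae and 5 were not called, with 3 of the 7 above 0. The Tc3-like transposase contig07038 had Cy3 levels of 8.22, 7.99, 8.90 and 8.03 in black olive pools and 9.96, 9.31, 9.61 and 9.69 in artificial diet pools (log2 difference -1.35, SE 0.252, adjusted p = 0.0296). The gag-pol contig06956 was at -1.02 (adjusted p = 0.0445) and lost its call without any single pool except artificial diet pool 2, with the slide row as a covariate, and in the Cy3 levels alone, where it was at -0.98. The call of contig07038 was kept only without black olive pool 1 or artificial diet pool 2. On the other side of 0, the transposase contig02335 was at 0.92 (adjusted p = 0.00916) and the transposase contig09291 at 0.97 (adjusted p = 0.0493), both under the fold threshold, and the reverse transcriptase contig00694 was at 1.06 (adjusted p = 0.0996). In the Cy3 levels alone contig09291 was called higher, at 1.07 (adjusted p = 0.00107). The reverse strand of contig02335, which has no description of its own and was chosen after its value was seen, was called higher at 1.34 (adjusted p = 0.00694).

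The difference through green olive equals the difference of the Cy3 levels minus that of the green olive levels on the same arrays, so the green olive term could be read directly. No contig was called between the green olive channels of the black olive arrays and those of the artificial diet arrays by limma in either direction, and 1.14% had an unadjusted p-value below 0.05. This fit took the 8 green olive channels as independent. The methods describe 4 green olive replicates, and the green olive deviations of the arrays matched one to one between the sets, with correlations of 0.720 to 0.897. The channels may therefore hold 4 extracts that were each used on 2 arrays, and the standard errors and p-values given here take no account of it. The term had a median size of 0.0352 over all contigs and 0.0429 over the called ones. In 6 called contigs it was above 0.5 in size, negative in 5 of them, and in rc_contig00002 it was -3.43. Cy5 readings of rc_contig00002 were 6.45, 6.31, 6.39 and 6.25 on the black olive arrays and 10.62, 11.78, 9.11 and 7.60 on the artificial diet arrays. On the artificial diet arrays its Cy5 readings ranked in the same order as its Cy3 levels, for a reason that was not tested. Those readings may therefore not be levels of green olive larvae. In the Cy3 levels alone that contig was at -9.47 (adjusted p = 0.00128).

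With the Cy3 levels alone, tested by limma with the same thresholds, 294 contigs or 1.43% were called, 105 higher (0.512%) and 189 lower (0.921%) in black olive larvae. The calls of both fits shared 172 contigs, all in the same direction, which is 89.6% of the 192 and 58.5% of the 294. The median standard error was 0.0965 in the Cy3 levels and 0.107 through green olive. The Cy3 levels alone called 122 contigs that were not called through green olive. Examples, chosen after their values were seen, were the transferase contig08281 (1.85, adjusted p = 0.00819), sepiapterin reductase contig02227, of pterin synthesis (1.10, adjusted p = 0.00925), jonah 65aiii contig03768 (1.11, adjusted p = 0.0388), sugar transporter contig09183 (-1.23, adjusted p = 0.014) and apolipoprotein D-like contig07071 (-1.41, adjusted p = 0.0359). So were cuticular protein 65Au contig11298 (-1.68, adjusted p = 0.0442) and contig11595 (-1.63, adjusted p = 0.0424). The same holds for 3-hydroxybutyrate dehydrogenase contig04692 (1.72, adjusted p = 0.0403) and 1 virus-like contig, which was called higher. Of the 20 contigs called only through green olive, none changed sign.

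**Figure D5:**
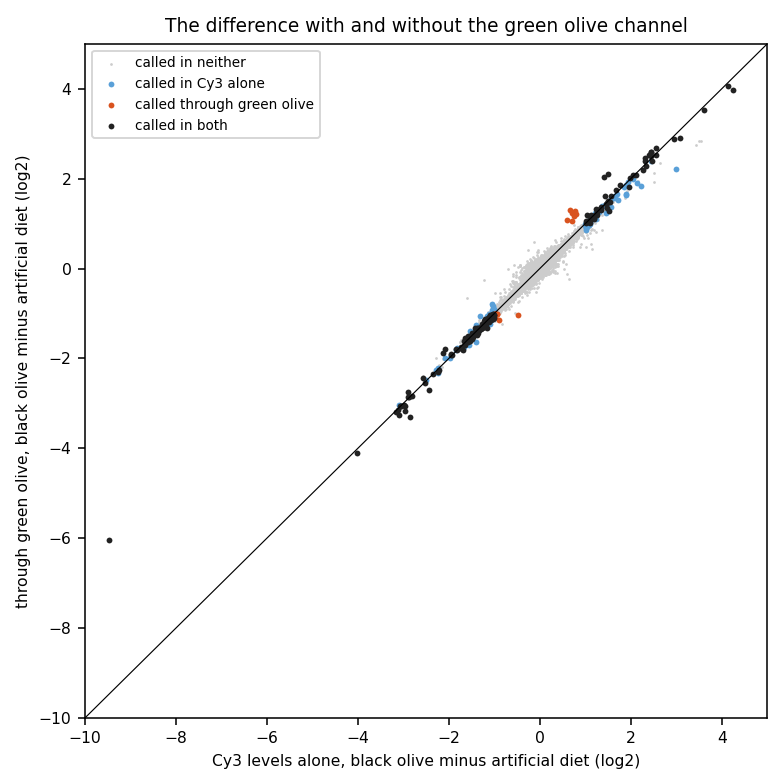
Log2 difference of every contig, black olive minus artificial diet, through the green olive channel (vertical axis) against the same difference of the Cy3 levels alone (horizontal axis), with the line of equality. Points are coloured by the fit that called them, and 172 contigs were called in both. The point far from the line at the lower left is rc_contig00002, at -9.47 and -6.04.

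Markers of tissues were measured beside these results, and their part in them was not tested. No muscle contig of 5 was called, with 4 below 0 and 1 above. Their summed Cy3 level overlapped, at 136730 to 178650 in black olive pools and 177220 to 212920 in artificial diet pools. Each sum leans to its brightest contigs, and most of the muscle sum is tropomyosin contig02423. Its log2 levels were 16.99 to 17.41 in black olive pools and 17.39 to 17.67 in artificial diet pools. None of 4 photoreceptor contigs was called through green olive either. Their sums did not overlap, at 2244 to 3006 in black olive pools and 3945 to 5413 in artificial diet pools. Rhodopsin contig08203 was called lower in the Cy3 levels alone, at -1.12 (adjusted p = 0.00925). Through green olive, rhodopsin contig04859 was at -0.93 (adjusted p = 0.0354), under the fold threshold, and rhodopsin 3 contig03383 at 0.14 (adjusted p = 0.739). None of 3 testis contigs was called, and their sums did not overlap, at 401 to 476 in black olive pools and 490 to 1102 in artificial diet pools. No black olive pool had sperm-leucylaminopeptidase 1 contig04956 well above background, and its log2 difference was -0.98 (adjusted p = 0.275). It and contig00850 are testis markers here by description only, and the paper counts both among metalloproteases of digestion. Of 2 odorant-binding contigs 1 fell. Odorant-binding protein 56h contig07104 had Cy3 levels of 12.01, 11.70, 11.45 and 11.66 in black olive pools and 12.66, 12.95, 12.77 and 12.71 in artificial diet pools (log2 difference -1.07, SE 0.14, adjusted p = 0.00841), and lost its call without black olive pool 3. The summed levels of both odorant-binding contigs did not overlap, at 3314 to 4740 in black olive pools and 7384 to 10347 in artificial diet pools. The 2 salivary gland contigs, not called, overlapped at 5467 to 14057 in black olive pools and 12860 to 29399 in artificial diet pools. The 30 contigs of general cell function had a median difference of 0.04 and no call. Their sums did not overlap, at 1375700 to 1390400 in black olive pools and 1262100 to 1338500 in artificial diet pools. Within them 10 contigs of cytosolic ribosomal proteins lay between 0.03 and 0.25.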

How the data were processed

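Whole 2nd-instar larvae of *B. oleae* were measured on 8 arrays with 2 dyes each, and the black olive and artificial diet pools, 4 of each, were in Cy3. The methods describe 4 green olive replicates for both sets of arrays, and the fit takes the 8 Cy5 channels as independent. The median spot and background intensities were deposited by the authors as scanner output, without normalization, and the file headers name Feature Extraction 10.7.3.1, where the submitters' processing notes name 10.5. The deposited value table holds log10 ratios of Cy5 over Cy3, which differ by at most 0.005 from the log10 ratios of the scanner software.

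Following the methods, intensities were corrected with normexp (offset 50), the 1319 control spots of each array were removed, and loess and Aquantile normalization followed, with no weight on the 46 to 128 spots per array marked as outliers. Spots were averaged by probe and probes by contig. A linear model over the 8 arrays, with a coefficient for each regime, was fitted with limma 3.58.1 in R 4.3.3, with empirical Bayes moderation (6 residual and 2.21 prior degrees of freedom). All adjusted p-values given are limma's with Benjamini-Hochberg adjustment over 20516 contig names, of which 20512 had a value on every array, and 0.05 and 1 (log2) were the thresholds. Where no pool of a regime was well above background, that regime was set to the faintest signal well above background on each array and the fold is a lower bound.

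On simulated data with 200 changed contigs the steps recovered 98.5, 98.5 and 95.5% of changes of 1.5, 2 and 3 on the log2 scale, with 1 false call among 20512 contigs. This checks the steps only and gives neither the power nor the rate of false calls in the measured data. Measured contigs with wide errors were missed at such sizes, such as contig08281 at 1.82 (SE 0.535) and contig04692 at 1.53 (SE 0.405).

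Members and gene lists were chosen with earlier results of these data known, and most described contigs were chosen by the study on these arrays. Named contigs were, among called contigs with ratios that did not overlap, the 10 largest described rises and falls and the 5 largest undescribed ones, and every called member of a list. Uncalled list members are examples. Alternatives covered background, normalization, probe summary, filters, variance model, test, channel, slide row, replicate number, value table and each pool left out. Contigs have no genome coordinates in the sources used here.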

Additional observations from a re-analysis of the deposited data

Results flagged for a closer look

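In 7 of 132 sets of 4 Cy3 levels of a named contig, one pool stood apart from the others of its regime by Dixon's test, about as many as the 1 in 20 that chance gives. Black olive pool 2 was high in rc_contig04969, at 11.30, with the next pool at 9.76. Black olive pool 1 was low in aldehyde dehydrogenase contig03770, at 12.45, with the next at 13.34. Artificial diet pool 4 was high in guanylate kinase contig03283, at 10.53 beside 10.04, low in boCYP6A14-7, at 13.21 beside 13.58, and low in the 3-oxoacyl-acyl-carrier-protein reductase contig04780, at 12.06 beside 12.91. Artificial diet pool 3 was low in glutamine synthetase contig02665, at 10.85 beside 11.01, and artificial diet pool 2 was low in cathepsin K contig11758, at 7.89 beside 8.30. In each of these contigs the pools of the regimes did not overlap with the pool included.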

How the results depend on the processing

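The 67 higher and 125 lower contigs became 112 and 202 with the scanner's processed signals, 10 and 7 with treat, and 106 and 182 with quantile-normalised Cy3 levels alone. They became 105 and 189 with the Cy3 levels after loess and Aquantile, an alternative chosen after seeing the data, and 46 and 76 with the slide row as a covariate. With the replicate block 23 were higher and 11 lower. Same-numbered arrays did not deviate together (correlations -0.729 to 0.455, only number 4 matching its own best), so the numbers were not taken as pairs. Leaving out single pools gave 46 to 66 higher and 72 to 140 lower contigs, with artificial diet pool 3 giving the fewest of both (46 and 72). The cause of these shifts was not tested. No other alternative moved either count by over 1.5 times.

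None of the 66 named contigs changed sign under any alternative. The call was kept in all of them by 8, lost in treat by 55, with the replicate block by 56, with the slide row as a covariate by 24, and without at least 1 single pool by 33. Median centring in place of loess ended the calls of 15 named contigs. The value table ended 13, the processed signals 8 and the median of the probes 7. With the processed signals the difference was 3.20 for contig10157, 3.55 for contig03604, 2.26 for contig02330, -1.71 for contig04218, -2.90 for contig11758 and -5.89 for contig00002, with like values from the value table. With the slide row as a covariate that of contig02330 was 0.76. With the median of the probes that of contig03770 was 0.62. For the faint contigs among these the size of a fold change is therefore uncertain.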

Other observations

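The green olive channels of the 2 sets of arrays deviated from their set means together in a one-to-one pattern that the replicate numbers do not follow. Over contigs, the deviations in Cy5 correlated at 0.896 between the array of black olive pool 2 and that of artificial diet pool 1, at 0.897 between those of black olive pool 3 and artificial diet pool 2, at 0.720 between those of black olive pool 1 and artificial diet pool 3, and at 0.853 between those of black olive pool 4 and artificial diet pool 4. All 12 other combinations lay between -0.594 and -0.0899. These are descriptions across contigs, which are not independent, the arrays share one slide and one dye, and the deviations of a set sum to 0 for each contig, which by itself pulls the other combinations below 0.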
